A study of Mus musculus with 12 samples.

Results

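The gene Mllt10, which codes for the mouse AF10 protein, lies on mouse chromosome 2 in a stretch with Skida1, Dnajc1, Bmi1 and Pip4k2a. These 5 genes were taken as the Mllt10 neighbourhood, by their symbols in the probe annotation. Each was read by 1 probe set of its own, so the neighbourhood was 5 probe sets of 35556 on the array and 5 genes of 19938 with a probe set carrying 1 symbol. In the RefSeq gene order the genes run Skida1, Mllt10, Dnajc1, Commd3, Bmi1, Gm46725, Spag6 and Pip4k2a. Mllt10 and Dnajc1 overlap at their ends in that annotation.

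AF10 is a cofactor of the histone methyltransferase DOT1L, and its octapeptide motif and leucine zipper (OM-LZ) form the part through which it binds DOT1L. In the leukaemia fusion CALM-AF10 that part is joined to CALM, a clathrin assembly protein, and HOXA genes are the fusion's best known targets in blood progenitors. Genes beside the AF10 breakpoint, BMI1 among them, have been described as raised in human leukaemias with CALM-AF10, where the fusion gene sits in this chromosomal neighbourhood. BMI1 is a subunit of Polycomb repressive complex PRC1, holds the Ink4 locus silent and is needed for self-renewal of blood stem cells.

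In these samples the fusions came from a retroviral vector and not from the chromosome. Bone marrow was taken from adult mice labelled C57/BL6/C3H that had been given 5-Fluorouracil, and was transduced with 1 of 4 constructs, with 3 biological replicates each. These were the minimal fusion CALM(400-648)+AF10 (677-758), the fusion CALM-AF10, the same fusion lacking OM-LZ (CALM-AF10 ΔOM-LZ), and the empty vector MIG. All groups shared the drug, 48 h of stimulation, overlay on irradiated GFP+E86 producer cells with cytokines and protamine sulfate, sorting for GFP, and RNA collection at 96 h after transduction. The AF10 fragment of the minimal fusion holds OM-LZ, as known from work on AF10 and not from the labels. Sorted GFP+ cells were a mixture, and in such bulk RNA fewer cells of a type and less RNA per cell cannot be told apart. Nothing in the labels says that replicates came from separate mice, so p-values measure the spread between these samples, which may be technical.

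Values are deposited log2 intensities, and a difference of 1 on that scale is a doubling. Array medians ran from 6.58 to 6.69, and the median difference over all tested probe sets stayed within 0.01 of 0 in each comparison. Blood markers were well above those medians on every array, with Ptprc at 10.01 to 10.92, Spi1 at 11.3 to 12.1 and Kit at 9.86 to 11.2. All 5 T and NK cell markers lay below the array medians on every array, Cd3g at 4.23 to 4.63 among them. Of 6 fibroblast and producer-line markers only Postn lay below, at 4.45 to 4.77. The other 5 lay above on every array, with Col1a1 at up to 7.74, Col1a2 at 6.88 to 7.29, Col3a1 at 6.70 to 7.28, Fn1 at 7.64 to 10.67 and Thy1 at 10.25 to 11.26, and their part in the results was not tested. Hoxa9, a known target of such fusions, was higher in minimal fusion than in MIG arrays by 1.39 (limma adjusted p = 0.00132). With CALM-AF10 it stood only 0.30 above MIG (limma adjusted p = 0.833), and with ΔOM-LZ it differed from MIG by −0.055. Between CALM-AF10 and ΔOM-LZ the Hoxa9 difference was 0.36, and it did not pass the adjusted threshold of 0.05.

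Promoter sequences from RefSeq (build GRCm38.p6, from 250 bases before to 50 after the start) were held for 4 of the 5 genes. Those of Dnajc1 and Pip4k2a are shown because these genes had the closest relation among the 5 across the arrays, described below. Capitals mark the GC box GGGCGG on either strand, and in Pip4k2a 2 of the matches share a base.
Dnajc1 promoter, chr2:18392781-18393080, minus strand: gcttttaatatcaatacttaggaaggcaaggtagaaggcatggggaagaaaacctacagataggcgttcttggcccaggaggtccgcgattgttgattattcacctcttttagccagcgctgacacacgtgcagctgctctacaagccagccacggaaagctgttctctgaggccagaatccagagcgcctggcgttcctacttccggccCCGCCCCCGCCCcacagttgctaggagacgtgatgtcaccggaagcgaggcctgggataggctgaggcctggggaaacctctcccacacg
Pip4k2a promoter, chr2:18998072-18998371, minus strand: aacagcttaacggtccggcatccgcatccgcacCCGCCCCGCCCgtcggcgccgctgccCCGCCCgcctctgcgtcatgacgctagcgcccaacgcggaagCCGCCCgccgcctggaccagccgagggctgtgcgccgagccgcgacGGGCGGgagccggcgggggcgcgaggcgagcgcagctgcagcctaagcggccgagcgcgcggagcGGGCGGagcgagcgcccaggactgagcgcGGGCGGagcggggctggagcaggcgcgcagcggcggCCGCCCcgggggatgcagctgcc
The Dnajc1 window held 2 such matches at a GC content of 56.7%, and the Pip4k2a window 8 at 79.7%. Of 32851 mouse promoters of the same length, 35.7% held at least 1 match. The motif CCGGAAG, the core bound by ETS factors, occurred 2 times in the Dnajc1 window and not in the Pip4k2a window, and 8.86% of promoters held it. The E box CACGTG, searched on both strands like the others, occurred 1 time in the Dnajc1 window, with 7.15% of promoters holding it. These matches describe the letters of the windows and were not tied to binding.

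Across the 4 constructs Skida1 stood out among the 5 genes, being about 2.25-fold higher in minimal fusion than in MIG arrays. Mllt10, Dnajc1 and Bmi1 differed from MIG by at most 0.27 on the log2 scale, and Pip4k2a stood lower with the minimal fusion. None of the 5 genes passed the adjusted threshold of 0.05 in any of the 8 comparisons made with limma. An unadjusted p under 0.05 was reached by Skida1 in the 3 comparisons of the minimal fusion, in the OM-LZ contrast and in the F test. Among the 23410 probe sets it ranked 11 by p against MIG, 18 against ΔOM-LZ and 9 against CALM-AF10. In the OM-LZ contrast it ranked 43 and in the F test 13. Pip4k2a reached such a p in the minimal fusion comparison against MIG, at rank 1559, beside 7.61% of all probe sets. For the minimal fusion against MIG, 0.0342% of all 23410 tested probe sets passed the adjusted threshold. Against ΔOM-LZ it was 0.0171%, and against CALM-AF10 0.00427%. No probe set at all was called for CALM-AF10 against MIG, ΔOM-LZ against MIG or CALM-AF10 against ΔOM-LZ, where 5.26%, 3.96% and 2.26% had an unadjusted p under 0.05. The contrast of constructs with OM-LZ against those without called 0.0128%, and the moderated F test over all constructs called 0.00854%.

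**Figure D1:**
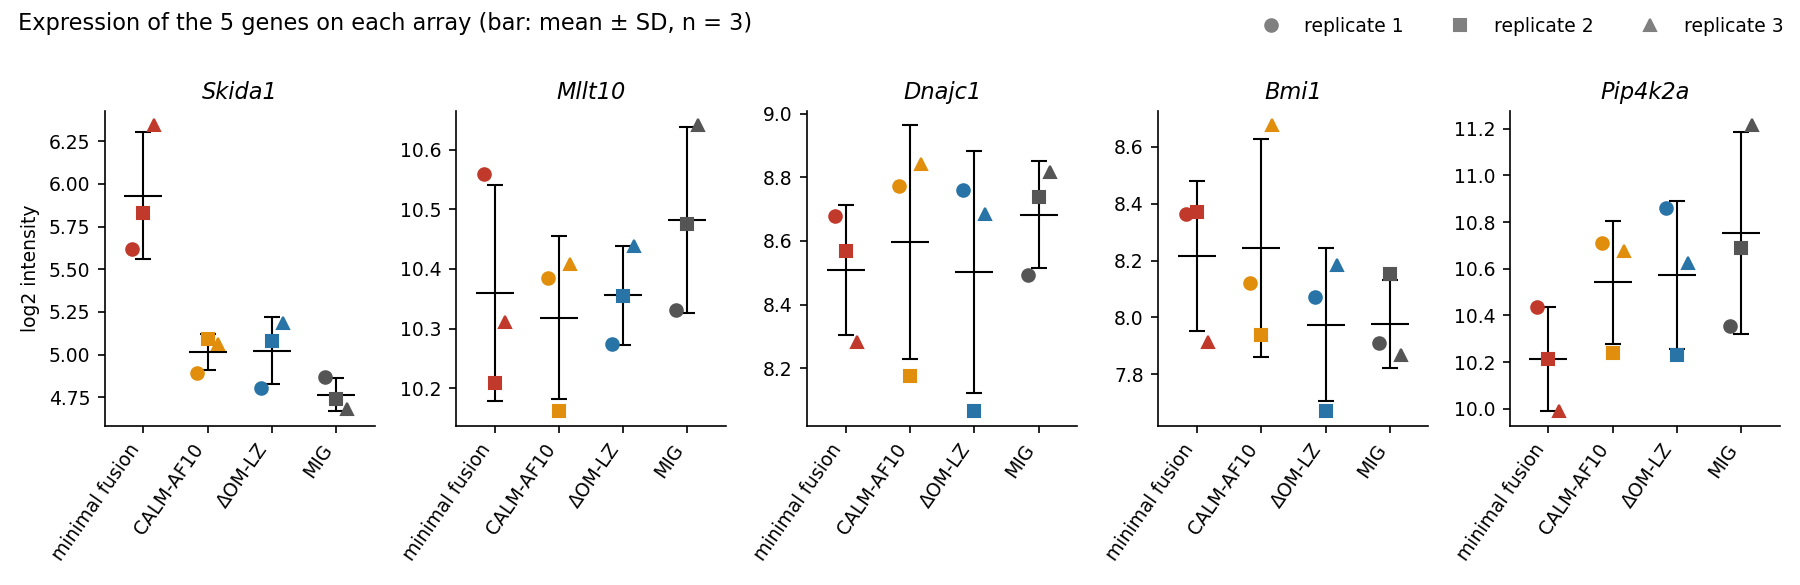
Log2 intensity (y axis) of the 5 genes on each of the 12 arrays by construct (x axis), with points for replicates and bars for mean ± SD (n = 3). The 3 minimal fusion arrays of Skida1, at 5.62 to 6.34, sit above all other arrays, while the groups of Mllt10, Dnajc1, Bmi1 and Pip4k2a overlap.

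Skida1 codes for a protein with a SKI/DACH domain, a fold found in transcriptional corepressors. It stood at 5.62, 5.83 and 6.34 in minimal fusion arrays, at 4.89, 5.09 and 5.06 in CALM-AF10 arrays, at 4.81, 5.08 and 5.19 in ΔOM-LZ arrays and at 4.87, 4.74 and 4.68 in MIG arrays. The lowest minimal fusion array was thus above the highest of the other 9 arrays. Of all tested probe sets, 0.325% had their 3 minimal fusion arrays above all 9 others. Group means were 5.93 ± 0.37 with the minimal fusion, 5.01 ± 0.11 with CALM-AF10, 5.02 ± 0.20 with ΔOM-LZ and 4.76 ± 0.10 with MIG (SD, n = 3 each). The order of the levels therefore had the minimal fusion on top and MIG at the bottom, with CALM-AF10 and ΔOM-LZ apart by less than their spread. Of the gene's variance over the arrays, 85.7% lay between constructs, against 8.53% to 35.8% for the other 4 genes.

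The Skida1 difference between the minimal fusion and MIG was 1.17 (SE 0.17, 95% interval 0.79 to 1.54), or 1.73-fold to 2.92-fold, with an adjusted p of 0.0594 in limma. It ranked 11 among the 23410 probe sets by p. Against ΔOM-LZ the difference was 0.91 (interval 0.53 to 1.28, adjusted p = 0.32) and against CALM-AF10 0.92 (interval 0.54 to 1.29, adjusted p = 0.608). These differences were larger than the spread between replicates in the sense that the groups did not overlap, as was so in the higher direction for 6.08% of probe sets against MIG, 3.7% against ΔOM-LZ and 2.06% against CALM-AF10. The limma call against MIG depended on the setting. With trend and robust variance the adjusted p was 0.0366, with probe sets averaged per gene 0.0453, and in a fit of the minimal fusion and MIG arrays alone 0.438. Skida1 is a dim probe set, with only 25.2% of all 35556 probe sets dimmer, and its level was below the array medians in every sample.

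The full-length fusions gave small Skida1 differences. CALM-AF10 stood 0.25 above MIG (interval −0.12 to 0.63), with no overlap between the groups, a pattern that 6.04% of probe sets shared in that direction. ΔOM-LZ stood 0.26 above MIG (interval −0.12 to 0.64), with overlapping groups. CALM-AF10 and ΔOM-LZ differed by −0.0089 (interval −0.38 to 0.37), so deletion of OM-LZ from the full-length fusion gave no detectable Skida1 difference, while a rise of up to 1.29-fold and a fall of up to 1.31-fold lie inside the interval. The mean of both constructs with OM-LZ was 0.58 above the mean of both without it (SE 0.12, limma adjusted p = 0.284). That value rests on the minimal fusion arrays, since CALM-AF10 and ΔOM-LZ were level. The minimal fusion also differs from the full-length fusions in the parts of CALM and AF10 it holds, so this contrast cannot set OM-LZ apart.

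**Figure D2:**
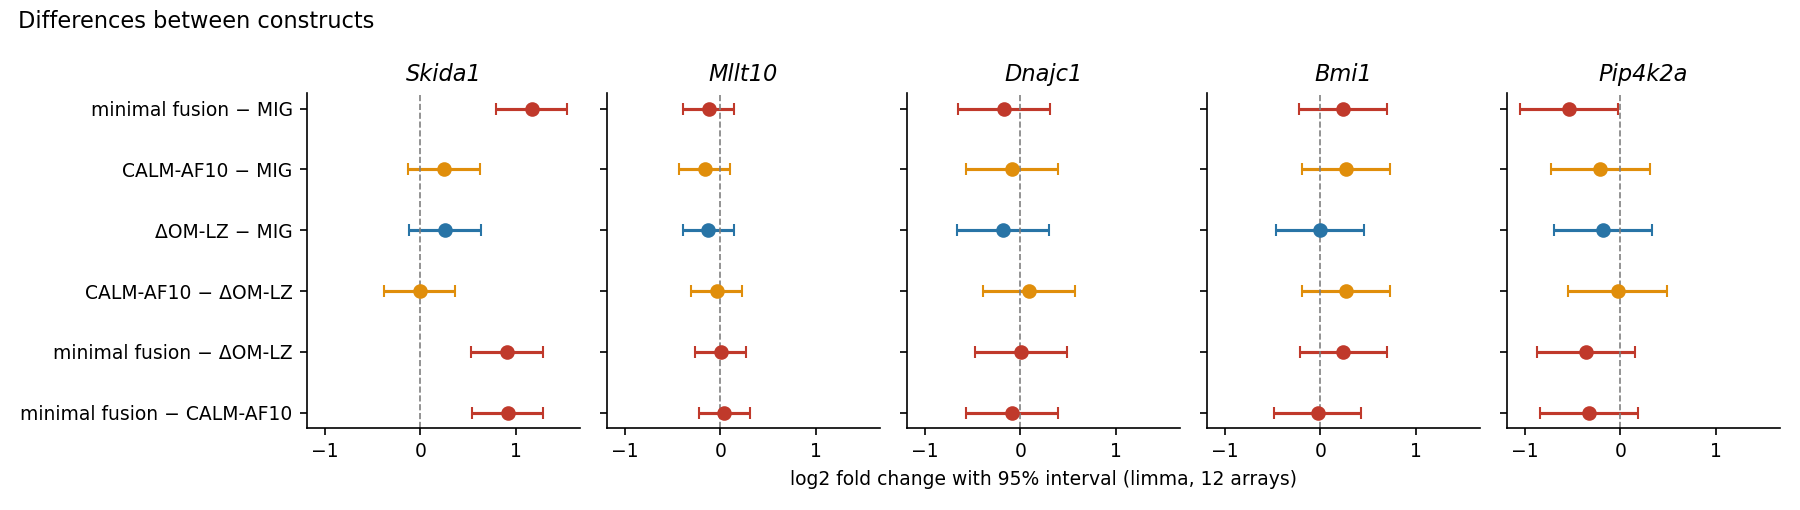
Log2 fold change between constructs (x axis) for each of the 5 genes with 95% limma intervals over 12 arrays, 1 row per pair of constructs, minimal fusion rows in red. Skida1 intervals lie above 0 in the 3 comparisons of the minimal fusion, and Pip4k2a has 1 interval that leaves out 0, the minimal fusion against MIG (−1.06 to −0.023).

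The genes whose brightest probe sets followed Skida1 most closely over the 12 arrays, of 19937 others, were Hoxa3 (r = 0.943), Cd7 (r = 0.933) and Nkx2-3 (r = 0.933). Hoxa3 is a homeobox gene of the HOXA cluster, Cd7 codes for a lymphoid surface protein and Nkx2-3 for a homeobox factor. Hoxa3 stood at 6.39, 6.71 and 7.02 in minimal fusion arrays, and at 5.43, 5.56 and 5.51 in MIG arrays. In limma Hoxa3 rose by 1.21 (adjusted p = 0.0383) and Nkx2-3 by 1.11 (adjusted p = 0.0451) with the minimal fusion against MIG, while Cd7 was higher by 1.06 without passing (adjusted p = 0.307). The likeness came mostly from the minimal fusion arrays, which form a cluster of their own. Over the 9 other arrays Skida1 gave r = 0.46 with Hoxa3, 0.47 with Cd7 and 0.58 with Nkx2-3, with exact permutation p adjusted over 10 relations of 0.274, 0.274 and 0.272. With Hoxa9 it gave r = 0.16 there (exact adjusted p = 0.68).

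Some marker lists ran against Skida1 over the 12 arrays. All 5 measured megakaryocyte markers of 8 listed were lower with the minimal fusion than with MIG, at a median difference of −1.10, with none called in limma and 4 at an unadjusted p under 0.05, which 7.61% of all probe sets reached in this comparison. The list's level per array, as a mean log2 deviation, was −1.04 to −0.40 in minimal fusion arrays, −0.79 to 0.16 in CALM-AF10 arrays, −0.50 to 1.16 in ΔOM-LZ arrays and −0.14 to 1.34 in MIG arrays. Over the 9 arrays without the minimal fusion, Skida1 was lower where that score was higher (r = −0.87, exact permutation p = 0.00295, adjusted p = 0.0295, rho = −0.90 with adjusted p = 0.0203). Without the arrays farthest from the median score, MIG replicates 2 and 3, r was −0.74. Of the marker lists, only this one and the mast cell list were carried to the 9 arrays. They were the lists with the strongest r with Skida1 over all 12 arrays, and the adjusted p over the 9 does not count that choice. Nor does it count that same-numbered CALM-AF10 and ΔOM-LZ arrays deviated together, so it may be too small. Skida1 spans only 4.68 to 5.19 on those 9 arrays. Over all 12 arrays Skida1 and the megakaryocyte score gave r = −0.77 (permutation adjusted p = 0.0559) and rho = −0.93 (adjusted p = 0.004). Within constructs r was −0.64 and did not pass (exact permutation adjusted p = 0.177). The mast cell score was also high where Skida1 was low, with r = −0.69 over 12 arrays (permutation adjusted p = 0.0718 over 50 relations) and rho = −0.83 (adjusted p = 0.015). Over the 9 arrays r was −0.72 (exact permutation adjusted p = 0.163), and within constructs −0.54 (exact permutation adjusted p = 0.188). All 8 late neutrophil markers and all 6 monocyte markers were lower with the minimal fusion than with MIG too, at median differences of −0.63 and −0.72 and with none called in limma. Their scores over the 12 arrays gave r = −0.47 and −0.51 with Skida1 (permutation adjusted p = 0.349 and 0.324). Within constructs the late neutrophil score ran the other way, at r = 0.49, and the monocyte score gave r = −0.088 (exact permutation adjusted p = 0.188 and 0.835). The part of these markers in the Skida1 difference was not tested.

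**Figure D3:**
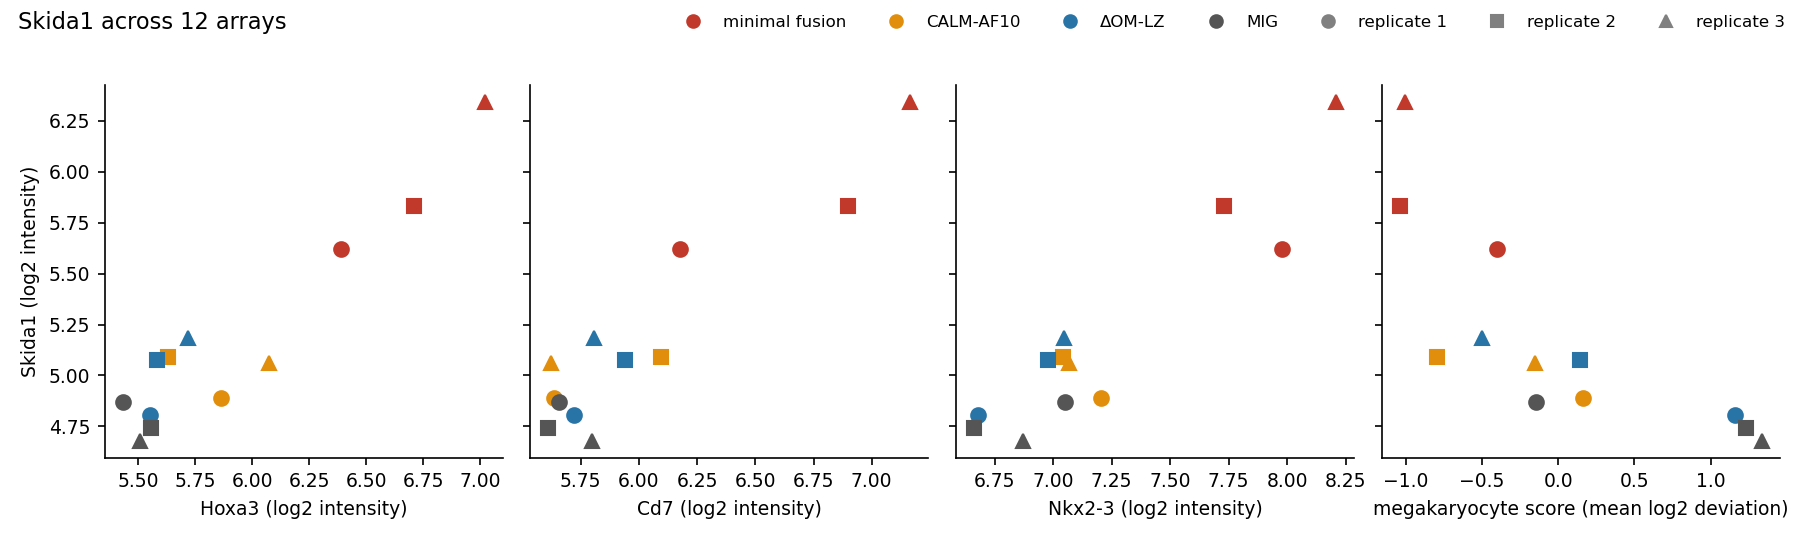
Skida1 log2 intensity (y axis) on the 12 arrays against Hoxa3, Cd7 and Nkx2-3 log2 intensity and the megakaryocyte marker score (x axes), with colours for constructs and shapes for replicates. The 3 minimal fusion arrays stand apart at the top of each panel, and in the last panel the 9 other arrays slope down (r = −0.87).

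Mllt10 itself hardly varied. It stood at 10.56, 10.21 and 10.31 in minimal fusion arrays, at 10.39, 10.16 and 10.41 in CALM-AF10 arrays, at 10.27, 10.36 and 10.44 in ΔOM-LZ arrays and at 10.33, 10.48 and 10.64 in MIG arrays. All groups overlapped, and the whole range over 12 arrays was 0.48. Against MIG the differences were −0.12 with the minimal fusion, −0.16 with CALM-AF10 and −0.13 with ΔOM-LZ (SE 0.12 each, with 0.855 as the lowest limma adjusted p). The interval for the minimal fusion, −0.39 to 0.15, leaves out a rise of more than 1.11-fold. Whether the mouse Mllt10 probe set also reads the AF10 part of the vectors was not tested. The 3 genes most like Mllt10 over the arrays were Tnfrsf13b (r = 0.888), Zfr (r = 0.887) and Ift81 (r = 0.884), and none of them passed in the minimal fusion comparison against MIG.

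Genes working with AF10 were read next. They were Mllt6, the AF10 paralogue, the methyltransferase gene Dot1l, and Mllt1 and Mllt3 for ENL and AF9, which share complexes with DOT1L. Of these 4 genes 0 were called for the minimal fusion against MIG, beside 0.0342% of all probe sets. The 4 had a median difference of 0.055, against 0.0045 over all tested probe sets. In limma Dot1l was 0.25 higher and Mllt1 0.22 higher, with unadjusted p = 0.0766 and 0.0358, while Mllt6 differed by −0.11 and Mllt3 by −0.70. Mllt3 stood at 8.51, 8.38 and 9.85 in MIG arrays and at 8.70, 7.97 and 7.97 in minimal fusion arrays. MIG replicate 3 thus weighs heavily in its difference, which did not reach an unadjusted limma p under 0.05.

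Dnajc1 codes for a J protein of the endoplasmic reticulum membrane that works with the chaperone BiP. It stood at 8.68, 8.57 and 8.28 in minimal fusion arrays, at 8.77, 8.18 and 8.84 in CALM-AF10 arrays, at 8.76, 8.06 and 8.68 in ΔOM-LZ arrays and at 8.49, 8.74 and 8.82 in MIG arrays. The lowest values belonged to replicate 2 of CALM-AF10 and of ΔOM-LZ, and every group overlapped every other. The differences against MIG were −0.17, −0.086 and −0.18 for the minimal fusion, CALM-AF10 and ΔOM-LZ (SE 0.22 each). With only 8.53% of its variance between constructs, Dnajc1 varied almost wholly among replicates. Its closest genes over the 12 arrays were Ulk2 (r = 0.975), an autophagy kinase gene, Smim3 (r = 0.971) and Zfp942 (r = 0.968), and none was called in that comparison. The minimal fusion against MIG called 0.0342% of all probe sets and none of 6 other genes for endoplasmic reticulum J proteins and BiP. These 6 had a median of −0.11. Among them Sec63, a partner of the translocation channel, differed by −0.31 (limma unadjusted p = 0.0196) and Hspa5, the BiP gene, by −0.17, while Dnajb11 was 0.12 and Dnajc10 0.034 higher.

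Bmi1 stood at 8.36, 8.37 and 7.91 in minimal fusion arrays, at 8.12, 7.94 and 8.68 in CALM-AF10 arrays, at 8.07, 7.67 and 8.18 in ΔOM-LZ arrays and at 7.91, 8.15 and 7.87 in MIG arrays. The groups overlapped in every comparison. The minimal fusion stood 0.24 above MIG (interval −0.22 to 0.70, limma adjusted p = 0.833) and CALM-AF10 0.27 above it (interval −0.19 to 0.73), so rises of up to 1.62-fold and 1.65-fold lie inside these intervals. Without CALM-AF10 replicate 3, the highest array, its 0.27 over MIG shrank to 0.052. ΔOM-LZ and MIG were level, at 7.98 ± 0.27 and 7.98 ± 0.15 (SD, n = 3 each). The mean of both constructs with OM-LZ was 0.25 above that of both without (SE 0.15, limma adjusted p = 0.848), and 0.15 above it without CALM-AF10 replicate 3.

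Same-numbered CALM-AF10 and ΔOM-LZ arrays deviated together over the tested probe sets and were read as pairs, though no label pairs them. Within the pairs Bmi1 was higher with CALM-AF10 than with ΔOM-LZ in 3 of 3, by 0.047, 0.27 and 0.49. The exact two-sided sign-flip p was 0.25, the smallest that 3 pairs allow. The mean difference of 0.27 moved to 0.053 without CALM-AF10 replicate 3 and to 0.12 without ΔOM-LZ replicate 2, so both arrays weigh heavily in it. Dnajc1 was also higher in 3 of 3 pairs, by 0.012, 0.11 and 0.16, and Mllt10, Skida1 and Pip4k2a were of mixed direction. Genes most like Bmi1 over the 12 arrays were Prkd2 (r = 0.941), a kinase gene, Tmem87a (r = 0.932) and Bcap29 (r = 0.931), an endoplasmic reticulum protein gene. None of them was called for the minimal fusion against MIG.

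Other genes of PRC1 showed no common direction with the minimal fusion. Of 19 listed genes 17 were measured and none was called, beside 0.0342% of all probe sets. Among the measured genes 7 were higher and 10 lower than in MIG, at a median of −0.00055. Ring1, which codes for a ubiquitin ligase of the complex, was 0.20 higher (limma adjusted p = 0.577) and Phc2, a Polyhomeotic gene, 0.15 higher, while Rnf2, the gene of the other ligase, and Yaf2 each differed by −0.33. Of the 17, 2 had an unadjusted p under 0.05, Ring1 and Yaf2, beside 7.61% of all probe sets in that comparison. For CALM-AF10 against MIG 13 were higher and 4 lower, at a median of 0.14, again with none called. At the Ink4 locus, the target of BMI1 repression, Cdkn2a was 0.085 higher with the minimal fusion than with MIG and Cdkn2b differed by −0.21, neither with an unadjusted limma p under 0.05.

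Pip4k2a codes for a lipid kinase that makes phosphatidylinositol bisphosphate. It stood at 10.43, 10.21 and 9.99 in minimal fusion arrays, at 10.71, 10.24 and 10.68 in CALM-AF10 arrays, at 10.86, 10.23 and 10.63 in ΔOM-LZ arrays and at 10.35, 10.69 and 11.22 in MIG arrays. MIG replicate 1 lay inside the minimal fusion range, so these groups overlapped. Between the minimal fusion and MIG the log2 fold change was −0.54 (SE 0.23, interval −1.06 to −0.023), with an unadjusted limma p of 0.0423 and an adjusted p of 0.635. An unadjusted p under 0.05 was reached by 7.61% of all probe sets in that comparison, and the difference shrank to −0.31 without MIG replicate 3. CALM-AF10 and ΔOM-LZ were −0.21 and −0.18 from MIG. The paralogues Pip4k2b and Pip4k2c, which code for kinases of the same reaction, differed by 0.050 and −0.067 between the minimal fusion and MIG, with neither called.

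Marker lists moved with Pip4k2a as well. All 7 mast cell markers were lower with the minimal fusion than with MIG, at a median difference of −1.09, with none called in limma and 2 at an unadjusted p under 0.05, beside the 7.61% of all probe sets. Their score ran from −1.23 to −0.42 in minimal fusion arrays, from −0.74 to 0.90 in CALM-AF10 arrays, from −0.16 to 1.45 in ΔOM-LZ arrays and from −0.27 to 1.75 in MIG arrays. Over 12 arrays Pip4k2a correlated with it at r = 0.87 (permutation p = 9e-05, adjusted p = 0.0045 over 50 relations, rho = 0.84 with adjusted p = 0.015). Without MIG replicate 3 and ΔOM-LZ replicate 1 r was 0.71, and within constructs 0.81 (exact permutation adjusted p = 0.177). With the megakaryocyte score r was 0.81 (permutation adjusted p = 0.0207, rho = 0.82 with adjusted p = 0.015), with 0.74 without MIG replicates 2 and 3 and 0.73 within constructs (exact permutation adjusted p = 0.231). Other lists ran the opposite way by rank, with r short of the threshold. With the primary neutrophil score Pip4k2a gave r = −0.69 and rho = −0.84 (permutation adjusted p = 0.0718 and 0.015), with the cell cycle score r = −0.69 and rho = −0.76 (adjusted p = 0.0718 and 0.0381), and with the T and NK cell score r = −0.68 and rho = −0.74 (adjusted p = 0.0718 and 0.0409). Within constructs these lists gave r = −0.77, −0.77 and −0.70 in that order (exact permutation adjusted p = 0.177, 0.177 and 0.193). The erythroid score gave r = 0.67 (permutation adjusted p = 0.0718), and 0.034 without MIG replicate 3 and ΔOM-LZ replicate 1. All 5 T and NK cell markers lay below the array medians on every array, so that score, at −0.14 to 0.16, is a dim signal. The part of these lists in the Pip4k2a difference was not tested. The genes most like Pip4k2a were Rb1 (r = 0.976), which codes for the retinoblastoma protein, Herpud2 (r = 0.974) and Rnf180 (r = 0.963). Between minimal fusion and MIG arrays Rb1 differed by −1.01 (limma adjusted p = 0.568).

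Among the 10 pairs of the 5 genes, Dnajc1 and Pip4k2a were most closely related over the 12 arrays, with r = 0.78 (permutation p = 0.00181, adjusted p = 0.0181) and rho = 0.85 (adjusted p = 0.0099). Both were low in replicate 2 of CALM-AF10 and of ΔOM-LZ and in minimal fusion replicate 3. After construct means were taken out r was 0.86 (exact permutation p = 0.00154, adjusted p = 0.0154), and 0.86 without replicate 2 of CALM-AF10 and of ΔOM-LZ. These permutations took arrays as separate units, though same-numbered CALM-AF10 and ΔOM-LZ arrays deviated together, so the p-values may be too small. The relation was not particular to this pair, since 4.92% of genes correlated with Pip4k2a at least as highly, and 5.56% of genes did so with Dnajc1. Dnajc1 was lower where the cell cycle score was higher (r = −0.75, permutation adjusted p = 0.0559, rho = −0.80 with adjusted p = 0.015), with r = −0.89 when minimal fusion replicate 2 and MIG replicate 1 were left out and −0.86 within constructs (exact permutation adjusted p = 0.177). It was likewise lower where the primary neutrophil score was higher (r = −0.70, permutation adjusted p = 0.0718, rho = −0.84 with adjusted p = 0.015), with r = −0.75 within constructs (exact permutation adjusted p = 0.231).

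Among the other pairs, Skida1 and Pip4k2a passed over the 12 arrays, with r = −0.73 (permutation adjusted p = 0.0334) and rho = −0.81 (adjusted p = 0.0111). That value spans the minimal fusion arrays, which stand apart in Skida1, and r was −0.54 without minimal fusion replicates 2 and 3 and −0.62 within constructs (exact permutation adjusted p = 0.0772). Over the 9 arrays outside the minimal fusion r was −0.65 (exact permutation p = 0.0576, adjusted p = 0.192), and −0.37 without MIG replicate 3 and ΔOM-LZ replicate 2. Over all 12 arrays, 8.24% of genes correlated with Pip4k2a at least as negatively as Skida1 did. With Skida1, 1.35% of genes correlated at least as negatively as Pip4k2a did. The remaining pairs did not pass. Mllt10 and Pip4k2a gave r = 0.63 (permutation adjusted p = 0.0756) and 0.31 without MIG replicate 3 and CALM-AF10 replicate 2. Dnajc1 and Bmi1 gave r = 0.62 (permutation adjusted p = 0.0756) and 0.39 without replicate 2 of CALM-AF10 and of ΔOM-LZ. Mllt10 and Skida1, adjacent genes, gave r = −0.46 over those 9 arrays (exact permutation adjusted p = 0.274).

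**Figure D4:**
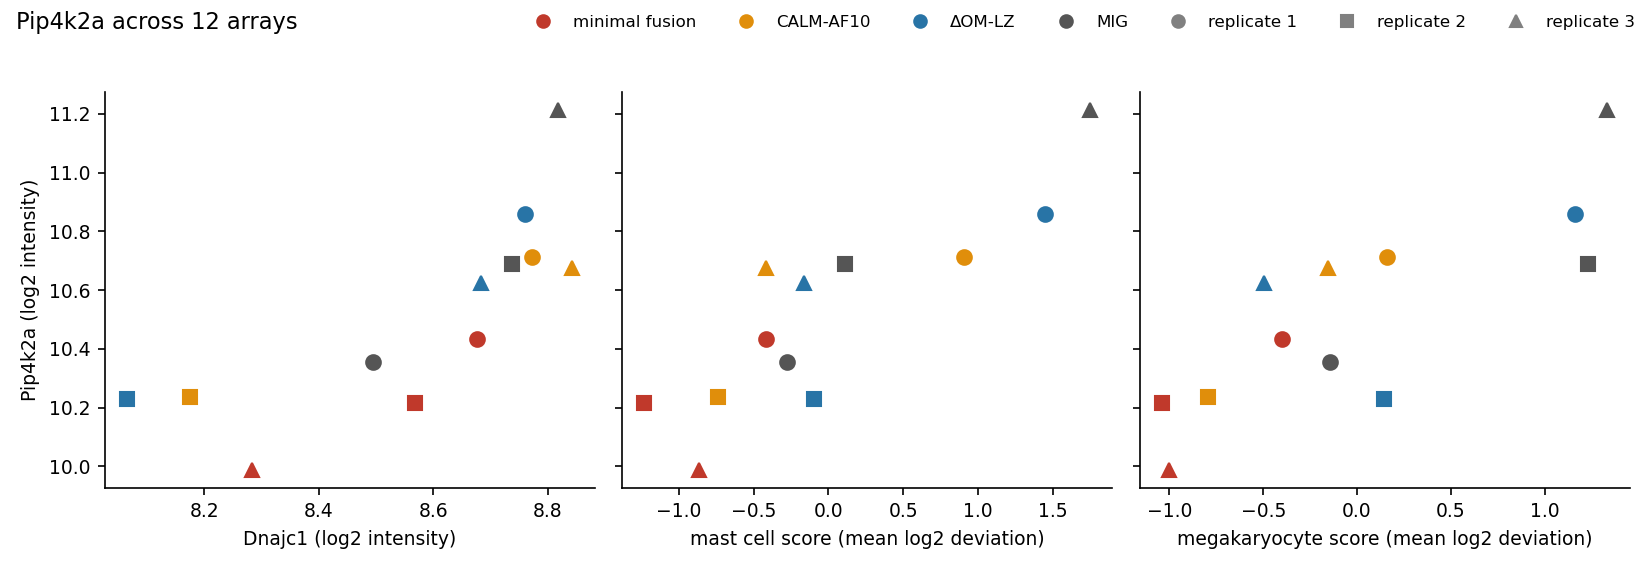
Pip4k2a log2 intensity (y axis) on the 12 arrays against Dnajc1 log2 intensity, the mast cell score and the megakaryocyte score (x axes), with colours for constructs and shapes for replicates. Pip4k2a is high where Dnajc1 is high (r = 0.78) and where the mast cell score is high (r = 0.87), with MIG replicate 3 at the top right of the score panels.

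The Skida1 difference was then set beside those of the genes around it on the chromosome. With the 5 genes, the genes between them and the 10 nearest protein-coding genes on each side, 26 of 28 genes were measured. No comparison called more than 0.0342% of all probe sets in limma, and none of the 26 was called. For the minimal fusion against MIG 10 were higher and 16 lower, at a median of −0.041, with 4 at an unadjusted p under 0.05 (Skida1, Pip4k2a, Plxdc2 and Msrb2), beside 7.61% of all probe sets. Of the 2 other measured genes inside the stretch, Commd3, a COMM domain gene next to Bmi1, differed by 0.044 (interval −0.28 to 0.37) and Spag6, a sperm flagellum gene, by −0.082. On the Skida1 side H2al2a and Nebl are the nearest measured genes, at 0.09 and −0.10.

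Outside the 5 genes the 21 others ran from −1.36 to 0.25 in that comparison. The lowest was Mrc1, a macrophage mannose receptor gene, at −1.36 (SE 0.99, limma adjusted p = 0.801), and the highest Msrb2, a methionine sulfoxide reductase gene, at 0.25 (adjusted p = 0.596). Plxdc2 differed by −1.02 with the minimal fusion, without overlap between the groups (limma adjusted p = 0.625), as was so in the lower direction for 6% of probe sets. For CALM-AF10 against MIG the 26 genes had a median of −0.052 and for ΔOM-LZ against MIG one of −0.013.

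**Figure D5:**
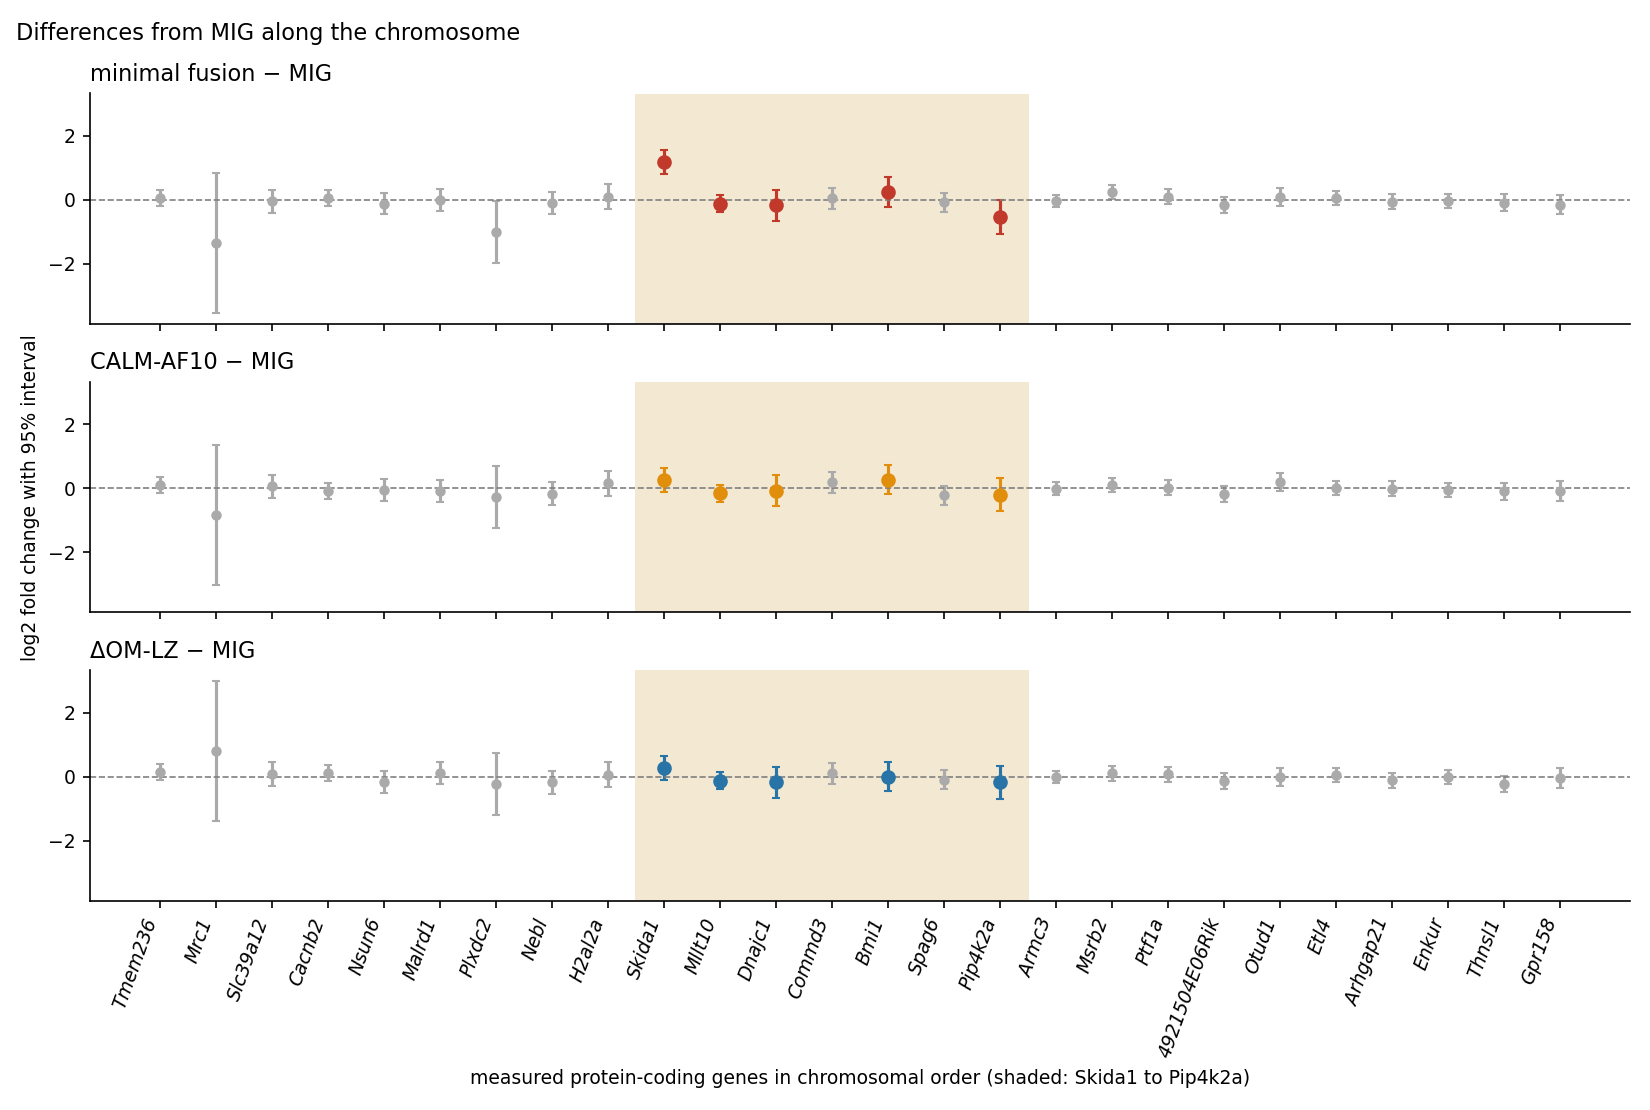
Log2 fold change against MIG with 95% limma intervals (y axis) for 26 measured protein-coding genes in chromosomal order (x axis, not to scale), 1 panel per fusion, with the stretch from Skida1 to Pip4k2a shaded and the 5 genes coloured. With the minimal fusion Skida1 stands at 1.17, while its neighbours Mllt10 and H2al2a sit near 0.

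Genes with a domain related to that of Skida1 were not called in limma. For the minimal fusion against MIG 0.0342% of all probe sets were called. Of Ski, Skil, Skor1, Dach1 and Dach2, which code for SKI or DACH family regulators, 2 of 5 were higher and 3 lower with the minimal fusion than with MIG, at a median of −0.24. Ski differed by −0.34 (limma unadjusted p = 0.0213, the lowest of the 5) and Skil by −0.38, while Skor1 was 0.069 and Dach2 0.029 higher.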

How the data were processed

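RNA of 12 samples was read on arrays after whole-transcript sense labelling. The authors deposited log2 intensities for every probe set. Per the submitters' processing notes these came from Affymetrix Expression Console. Its version, summarization and normalization, not given in the sources used here, were not checked. Nothing was renormalized. Of 35556 probe sets, GEO's platform annotation named 23410: 21789 with 1 symbol and 1621 with several, with 12146 unnamed.

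A linear model with 1 mean per construct was fitted to the 12 arrays with limma 3.58.1 in R 4.3.3 (lmFit, eBayes, 8 residual degrees of freedom), and tested on simulated data. Two-sided p-values were adjusted by Benjamini-Hochberg over 23410 probe sets, and called under 0.05. Groups do not overlap where the lowest array of one exceeds the highest of the other. Permutation p used 100000 resamples, or all arrangements where called exact, and were adjusted over each family of relations. All permutations took arrays as separate units, though same-numbered CALM-AF10 and ΔOM-LZ arrays deviated together, so these p-values may be too small. A marker score is the mean over a list of log2 values minus their means over the 12 arrays. Precision is limited by the 3 arrays per group.

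Replicate numbers were no block. Deviations of same-numbered arrays from group means correlated in every pair for CALM-AF10 and ΔOM-LZ only (r = 0.70 to 0.73), so that pairing rests on the values, with no label behind it. Minimal fusion replicate 1 also went with replicate 1 of CALM-AF10 (r = 0.72) and of ΔOM-LZ (r = 0.62), but replicate 3 did not (r = −0.20 and −0.071). The members and lists were chosen with earlier results of these data known. Named genes were the 5 members, their neighbours in RefSeq order, per list up to 4 with the highest and lowest statistics for the minimal fusion against MIG, and per member the 3 genes with the highest r. Genes with several probe sets were represented by the brightest. Alternatives were quantile normalization, median centring, trend and robust variance, a replicate block, other probe set choices, fits of the groups compared alone and leaving out each array.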

Additional observations from a re-analysis of the deposited data

How the results depend on the processing

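Over 35 fold changes of the 5 genes and 693 alternative values, 659 kept direction and call, 32 turned sign, 2 passed the threshold where the reported value did not, and 0 lost a call. With trend and robust variance, and with the mean of a gene's probe sets (19938 tested), 1 of the 5 genes was called for the minimal fusion against MIG, Skida1 at 1.17 (limma adjusted p = 0.0366 and 0.0453). Its adjusted p was 0.0667 with quantile normalization, 0.0585 with centred medians, 0.0534 over all probe sets and 0.124 with the replicate block, which called 0 of the 5 genes in any comparison. Leaving out 1 array gave 0.96 to 1.32 (adjusted p 0.0531 to 0.302). A filter on brightness at the median of all probe sets, 6.62, left Skida1 out. A fit of the 6 CALM-AF10 and ΔOM-LZ arrays with the replicate block, chosen after seeing the data, gave Bmi1 0.27 (limma unadjusted p = 0.0447, adjusted p = 0.341) and called 0 of the 5 genes, as did every comparison without any 1 array.

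Sign turned only among small differences. Quantile normalization gave 0.033 for Skida1 between CALM-AF10 and ΔOM-LZ, 0.022 for Bmi1 between the minimal fusion and CALM-AF10, and r = −0.075 for Mllt10 and Bmi1, and without 2 arrays r was −0.13 for Bmi1 and Pip4k2a. Leaving out 1 array, Dnajc1 ran from −0.21 to 0.12 for CALM-AF10 against MIG, from −0.31 to 0.038 for ΔOM-LZ against MIG, from −0.12 to 0.31 for CALM-AF10 against ΔOM-LZ, from −0.21 to 0.14 for the minimal fusion against ΔOM-LZ, from −0.30 to 0.035 against CALM-AF10 and from −0.15 to 0.066 for OM-LZ. Pip4k2a ran from −0.41 to 0.021 for CALM-AF10 against MIG, from −0.38 to 0.050 for ΔOM-LZ against MIG and from −0.20 to 0.12 for CALM-AF10 against ΔOM-LZ. Mllt10 ran from −0.083 to 0.041 for CALM-AF10 against ΔOM-LZ, from −0.096 to 0.080 for the minimal fusion against ΔOM-LZ and from −0.059 to 0.12 against CALM-AF10. Bmi1 ran from −0.11 to 0.15 for ΔOM-LZ against MIG and from −0.18 to 0.19 for the minimal fusion against CALM-AF10, and Skida1 from −0.12 to 0.073 for CALM-AF10 against ΔOM-LZ. The cause was not tested.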
